A study of Rattus norvegicus with 2 samples.

Results

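The proteasome genes of rat heart were compared with those of cultured cells. Members were all genes whose platform symbol begins with Psma, Psmb, Psmc, Psmd, Psme, Psmf or Psmg, and the rule found 46 of the 15613 genes measured, carried by 54 probes. Heart was measured as 2 uncultured, untreated samples on 2-colour Agilent arrays, and each heart RNA, labelled with Cy3, shared its array with RNA of mix1, labelled with Cy5. Mix1 was a single untreated pool of rat bone marrow cells and rat primary ear fibroblasts, each grown in medium with 10% fetal bovine serum. The labels name no strain, age or sex and do not say whether the heart samples came from separate animals. The spread behind each p-value comes only from differences between the 2 heart samples, pooled in part over all genes, and may be technical. Tissue of origin and culture cannot be told apart.

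All values below are log2 ratios of heart over mix1, with the SD over n = 2 arrays. A value of 1 is a 2-fold higher and -1 a 2-fold lower ratio. The SD is the gene's own and can be far smaller than the spread used for its p-value. A ratio compares a gene with itself in the other channel and gives no order of abundance between genes. The direction is likely and not stated outright. It was inferred from the series text, which words the comparison as heart against mix1, and from the cardiac markers, of which 7 of 7 were higher in heart on both arrays (median 6.29), while 7 of 7 fibroblast markers were lower (median -5.48). Dyes were not swapped, so the dye effect of a probe cannot be told apart from a small difference. Signal over background is not known for these ratios. Fewer cells of a type and less RNA per cell cannot be told apart in such bulk RNA.

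The proteasome is the large protease that degrades proteins tagged with ubiquitin. Its barrel, the 20S core, stacks outer rings of alpha subunits on inner rings of beta subunits, some of which cut peptide bonds. A 19S cap, built from a ring of ATPases and a set of other subunits, binds ubiquitin chains, removes them and unfolds the substrate. Under interferon gamma, and in many immune cells, the catalytic subunits encoded by Psmb5, Psmb6 and Psmb7 are replaced by those of Psmb8, Psmb9 and Psmb10, which gives the immunoproteasome and favours peptides suited to class I presentation. Psme1 and Psme2 encode the PA28 activator, a cap that binds no ubiquitin and is induced with them. In heart muscle the system turns over sarcomere proteins and damaged proteins.

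The start regions of the immunoproteasome genes and of the subunits they replace are shown because the interferon response element, the sequence through which interferon-regulated factors act, has a match in some of the former and in none of the latter. RefSeq promoters of build GRCr8 were found for 41 of the 46 members, and the windows run from 100 bases before the annotated start to 20 after it, in the direction of the gene. Capitals mark matches on either strand to the core of that element (a pair of GAAA with any 2 bases between) and to the core of the antioxidant response element (TGACNNNGC), which the stress factor Nfe2l1 also uses at proteasome genes.
Psmb8 (chr20:4657012-4657131, minus strand): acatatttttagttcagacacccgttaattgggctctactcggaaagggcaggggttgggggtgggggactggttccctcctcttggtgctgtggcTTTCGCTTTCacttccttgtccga
Psmb10 (chr19:50743273-50743392, minus strand): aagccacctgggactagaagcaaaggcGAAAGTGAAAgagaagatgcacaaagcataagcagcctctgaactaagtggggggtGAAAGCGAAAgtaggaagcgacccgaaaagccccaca
Psme2 (chr15:33052732-33052851, minus strand): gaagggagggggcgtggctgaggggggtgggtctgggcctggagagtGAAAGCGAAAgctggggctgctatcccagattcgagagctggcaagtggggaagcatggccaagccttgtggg
Psmb9 (chr20:4668900-4669019, plus strand): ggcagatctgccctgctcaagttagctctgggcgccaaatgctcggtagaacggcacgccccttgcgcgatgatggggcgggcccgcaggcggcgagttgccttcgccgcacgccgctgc
Psme1 (chr15:33038871-33038990, plus strand): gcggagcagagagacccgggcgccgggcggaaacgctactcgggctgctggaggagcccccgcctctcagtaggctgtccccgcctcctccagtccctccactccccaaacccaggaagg
Psmb5 (chr15:32047360-32047479, minus strand): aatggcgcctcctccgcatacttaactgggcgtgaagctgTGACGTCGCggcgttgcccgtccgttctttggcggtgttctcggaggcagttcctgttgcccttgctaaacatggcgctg
Psmb6 (chr10:55737788-55737907, plus strand): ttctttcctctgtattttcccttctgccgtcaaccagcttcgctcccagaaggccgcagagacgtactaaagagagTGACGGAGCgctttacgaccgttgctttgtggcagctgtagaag
Psmb7 (chr3:42827451-42827570, minus strand): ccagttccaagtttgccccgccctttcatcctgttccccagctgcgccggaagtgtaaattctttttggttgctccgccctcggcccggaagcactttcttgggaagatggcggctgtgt

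Across the whole windows of 250 bases before and 50 after the start, the interferon element core was found in 3 of the 5 immunoproteasome genes (Psmb8, Psmb10 and Psme2) and in 4 of the 36 other members with a promoter (Psma4, Psmb3, Psmd7 and Psmg4), against 3.28% of 12707 promoters of measured genes and 3.77% of all 27457. Psmb10 held it at 73 and at 17 bases before the start. In Psmb8 the match began 4 bases before the start and ran past it, and in Psme2 it began 53 bases before. The windows of Psmb9 and Psme1, the immunoproteasome genes with the largest ratios, held no match to it. The antioxidant element core was found in 0 of the 5 immunoproteasome genes and in 8 of the 36 others, among them Psmb5, Psmb6, Psmb2 and Psmd9, against 13.5% of promoters of measured genes. Its holders lay on either side of the comparison, from -2.18 for Psmd9 to 0.60 for Psmb6. Of the other motifs searched, the gamma-activated site TTCNNNGAA stood in 4 members, Psmb8 among them, against 7.64% of promoters of measured genes. The ETS core CCGGAAG stood in 13 of 41 (31.7%) against 13.3%, the box GGGCGG in 31 of 41 (75.6%) against 51.2%, CCAAT in 20 of 41 (48.8%) against 38%, the NRF1 element (GCGCA and GCGC with any 1 base between) in 6 against 7.46% and TGACGTCA in 1 against 2.5%. A match describes the letters and is no evidence of binding.

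Proteasome genes were more often higher than lower in heart, mostly by less than 2-fold. In limma's moderated test over all genes, 26 of 46 members (56.5%) were higher in heart at an adjusted p of 0.05, against 31.4% of all genes, and 10 (21.7%) were lower, against 41.5%. The remaining 10 did not pass. Called in either direction were 36 members, against 72.9% of all genes. The median ratio of the members was 0.29, while that of all genes was -0.09. Of the called members, 23 differed by less than 2-fold, down to 0.17 for Psma4, and calls of this size cannot be told apart from a dye effect. At least 2-fold higher were 10 members (21.7%, against 16.9% of all genes), namely Psme1, Psmg4, Psmd6, Psmb9, Psmb10, Psmb11, Psmc3ip, Psmc5, Psma6 and Psmf1. At least 2-fold lower were 3 (6.52%, against 19.5% of all genes), namely Psmd9, Psmd13 and Psmd5. Outside the immunoproteasome, 21 of 41 members (51.2%) were higher at any size. Of these 41, 7 (17.1%) were at least 2-fold higher, a share near the 16.9% of all genes. The 7 include Psmc3ip, which is no subunit.

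**Figure D1:**
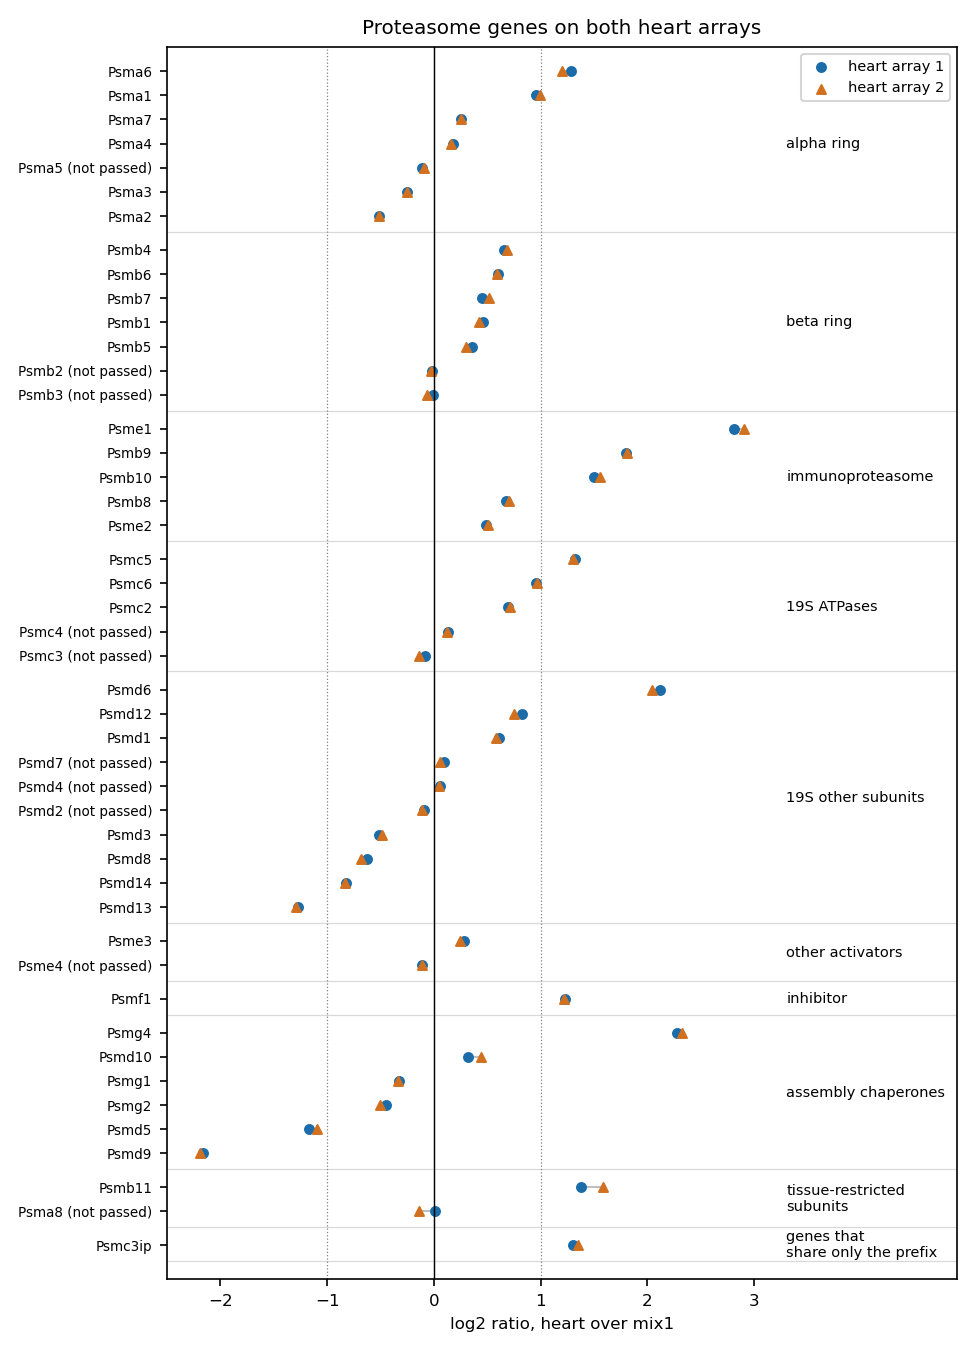
Log2 ratio of heart over mix1 (horizontal axis) for each of the 46 proteasome genes, grouped by role, with a circle for heart array 1 and a triangle for heart array 2; dotted lines mark 2-fold. The 5 immunoproteasome genes all lie to the right of 0, while the 19S subunits and assembly chaperones spread to both sides, and the arrays differ by at most 0.20 for any gene.

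The arrays lay close together for every member. The difference between arrays had an SD of 0.06 over the 46 members and 0.34 over all genes, and 0 members differed by 2-fold or more between arrays, against 2.16% of all genes. The largest difference was that of Psmb11, at 1.38 on array 1 and 1.58 on array 2. Heart array 2 stood apart in genes of lung epithelium, whose 7 markers had a median of -0.21 on array 1 and 3.85 on array 2. On array 1 the lung markers lay at 0.33 or below apart from Sftpc at 0.84 and Sftpa1 at 0.56. The members' median was 0.30 on array 1 and 0.28 on array 2. Whether lung RNA on array 2 moved the ratio of any member was not tested.

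All 5 immunoproteasome genes were higher in heart (median 1.53), beside 31.4% of all genes. At least 2-fold higher were 3 of them (60%), beside 16.9% of all genes. Psme1, the alpha subunit of PA28, was at 2.81 on array 1 and 2.91 on array 2. This was the highest ratio of all 46 members, 7.26-fold (2.86 ± 0.06, adjusted p 0.00125). Psme2, the PA28 beta subunit that assembles with it in the same ring, was only at 0.49 and 0.51 (0.50 ± 0.01, adjusted p 0.00581). The partners therefore differed by 2.36 ± 0.05 on the log2 scale, although each was measured by 1 probe.

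Among the catalytic subunits, Psmb9, the beta-1i subunit, was at 1.80 and 1.81, a 3.50-fold difference (1.81 ± 0.01, adjusted p 0.00134). Psmb10, the beta-2i subunit, was at 1.50 and 1.56 (1.53 ± 0.04, adjusted p 0.00174). Psmb8, the beta-5i subunit, was at 0.67 and 0.70, a 1.61-fold difference (0.69 ± 0.02, adjusted p 0.00383). Psmb9 and Psmb10 thus lay past 2-fold on each array and Psmb8 did not.

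The constitutive subunits that these replace were also higher in heart, all by less than 2-fold. Psmb6 (beta-1) was at 0.60 and 0.59 (adjusted p 0.00442), Psmb7 (beta-2) at 0.45 and 0.52 (adjusted p 0.00847) and Psmb5 (beta-5) at 0.35 and 0.30 (adjusted p 0.0148). Once each array was centred on its median, Psmb5 was at 0.39 and no longer passed (adjusted p 0.0568), in a fit that set aside each gene's own spread. Set against its counterpart within each array, Psmb9 exceeded Psmb6 by 1.20 and 1.22 (1.21 ± 0.01). Psmb10 exceeded Psmb7 by 1.05 and 1.04 (1.04 ± 0.005), and Psmb8 exceeded Psmb5 by 0.32 and 0.40 (0.36 ± 0.06). Each immunoproteasome subunit lay above its counterpart on both arrays, and the difference at the beta-5 position was the smallest of the 3. These differences were not tested, since an exact test over 2 arrays cannot give a p below 0.5, and they compare probes whose dye effects may differ. Each of these genes had 1 probe. Among genes with 2 or more probes, those of 1 gene differed by a median of 0.35 in members and 0.75 in all genes. The difference of 0.36 at the beta-5 position was about as large as the former.

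**Figure D2:**
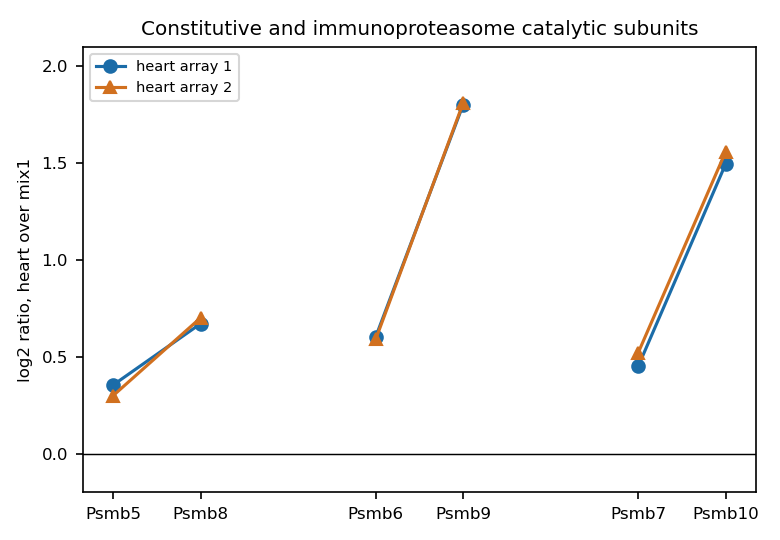
Log2 ratio of heart over mix1 (vertical axis) for each constitutive catalytic subunit and the immunoproteasome subunit that replaces it, joined by a line per heart array. All 6 lines rise, by 0.32 to 0.40 from Psmb5 to Psmb8, by 1.20 to 1.22 from Psmb6 to Psmb9 and by 1.04 to 1.05 from Psmb7 to Psmb10.

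As classes, the 14 core subunits had a median of 0.29 and the 5 immunoproteasome genes a median of 1.53. The 15 subunits of the 19S particle within the name rule had a median of 0.08. Subunits of that particle with other names were not counted. The immunoproteasome median exceeded that of the core by 1.19 on array 1 and 1.28 on array 2, and that of the 19S subunits by 1.40 and 1.50. The core median exceeded that of the 19S subunits by only 0.21 and 0.22. The classes differed in spread as well. The SD over genes was 0.48 in the core, 0.88 in the 19S subunits and 0.95 in the 5 immunoproteasome genes. Each of these SDs was smaller than that of all genes, which was 1.64.

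**Figure D3:**
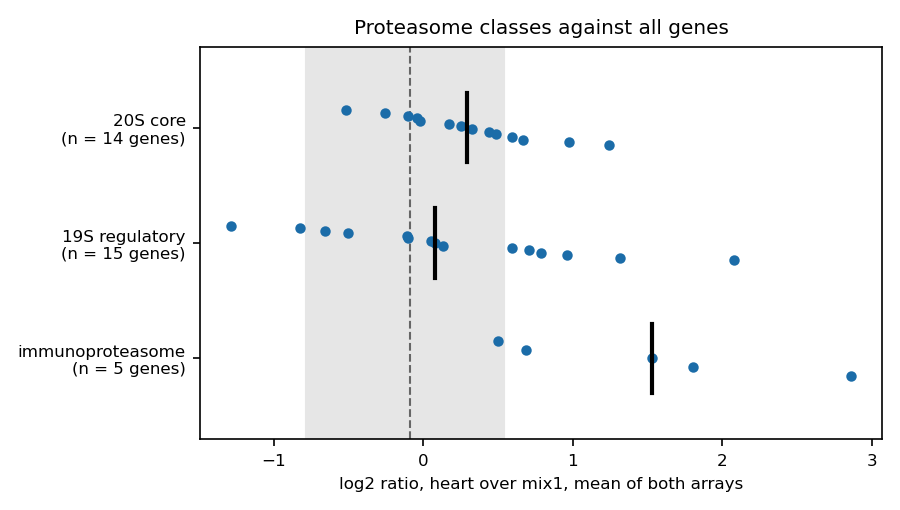
Mean log2 ratio of heart over mix1 (horizontal axis) for the core, 19S and immunoproteasome genes, 1 point per gene, with the class median as a black bar; the grey band is the middle 50% of all genes and the dashed line their median. Core genes lie between -0.51 and 1.24 and 19S genes between -1.28 and 2.08, while the immunoproteasome genes lie between 0.50 and 2.86.

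The 7 alpha subunits of the core form the outer rings and gate the entry. Of these, 4 (57.1%) were higher, 2 (28.6%) lower and 1 did not pass (median 0.17), beside 31.4% and 41.5% of all genes. Psma6 was highest at 1.28 and 1.20, a 2.36-fold difference (adjusted p 0.00245), followed by Psma1 at 0.96 and 0.99. Psma7 (0.25 ± 0.003) and Psma4 (0.17 ± 0.01) were slightly higher. Psma2 was the lowest at -0.51 on both arrays (adjusted p 0.00546), and Psma3 was at -0.25 (adjusted p 0.0184). Psma5 was at -0.10 and missed the threshold (adjusted p 0.0966). After centring, Psma3 (-0.19), Psma4 (0.23) and Psma7 (0.32) no longer passed (adjusted p 0.128 to 0.393), although the ratios of Psma4 and Psma7 were larger there. Subunits that occupy the same ring in equal number thus spanned 1.75 on the log2 scale.

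The 7 constitutive beta subunits lay closer together, between -0.04 and 0.67 (median 0.44). Of these, 5 (71.4%) were higher, all by less than 2-fold, and 0 lower, beside 31.4% and 41.5% of all genes. Psmb4, the noncatalytic subunit beta-7, was highest at 0.65 and 0.68 (adjusted p 0.00399), and Psmb1 was at 0.44 ± 0.03. Psmb2 (-0.02 ± 0.003, adjusted p 0.556) and Psmb3 (-0.04 ± 0.04, adjusted p 0.421) did not pass. Their SD over genes was 0.28, against 0.64 for the alpha subunits.

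Of the 6 ATPases of the 19S base, which unfold substrates and open the core, 5 were measured (median 0.70). Of these, 3 (60%) were higher and 0 lower, beside 31.4% and 41.5% of all genes. Psmc5 was at 1.32 and 1.30, a 2.48-fold difference (adjusted p 0.00172). Psmc6 was at 0.95 and 0.97 (adjusted p 0.00239) and Psmc2 at 0.69 and 0.72 (adjusted p 0.00361). Psmc4 (0.13 ± 0.01, adjusted p 0.0632) and Psmc3 (-0.11 ± 0.04, adjusted p 0.108) did not pass. Psmc1 was not analysed here.

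Of the 10 other subunits of the 19S particle within the name rule, 3 (30%) were higher, 4 (40%) lower and 3 not past the test. Their median was -0.02, and the shares lay near the 31.4% and 41.5% of all genes. The rule leaves out Adrm1 (1.29) and Sem1 (0.89), also of this particle and both higher in heart. Psmd6, a scaffold subunit of the lid, was at 2.11 and 2.04, a 4.22-fold difference (adjusted p 0.00144). Psmd13, a lid subunit of the same fold family, was at -1.28 and -1.29, 2.43-fold lower (adjusted p 0.00174). Both belong to the lid, and their ratios lay 3.36 apart, the ends of the range of this group.

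Psmd12 (0.79 ± 0.05), also of the lid, and Psmd1 (0.59 ± 0.02), the large scaffold of the base, were higher. Psmd14, the deubiquitinase that removes ubiquitin chains from substrates, was at -0.82 and -0.83 (adjusted p 0.00285). Psmd7, the subunit that pairs with it, was at 0.10 and 0.06 and did not pass (adjusted p 0.167). The lid subunits Psmd8 (-0.65 ± 0.04) and Psmd3 (-0.50 ± 0.02) were lower. The ubiquitin receptor Psmd4 (0.05 ± 0.01, adjusted p 0.256) and the scaffold Psmd2 (-0.10 ± 0.01, adjusted p 0.101) did not pass. Psmd11 was not analysed here.

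Assembly chaperones, which help to build the particle and leave it when it is complete, held the largest ratios in both directions outside the immunoproteasome. Of 6 measured, 2 (33.3%) were higher and 4 (66.7%) lower (median -0.41), beside 31.4% and 41.5% of all genes. Psmg4, a chaperone of the alpha ring, was at 2.28 and 2.32, a 4.92-fold difference (adjusted p 0.00126). Psmd9, a chaperone of the ATPase ring, was at -2.16 and -2.19, 4.52-fold lower and the lowest of all members (adjusted p 0.00125).

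The other chaperones of the base went in opposite directions, Psmd5 at -1.17 and -1.10 (adjusted p 0.00255) and Psmd10, also called gankyrin, at 0.32 and 0.44 (adjusted p 0.0209). Psmg1 (-0.33 ± 0.01) and Psmg2 (-0.48 ± 0.04), which act as a pair on the alpha ring, were both lower by less than 2-fold, and after centring Psmg1 was at -0.27 and no longer passed (adjusted p 0.21). Psmg3, the partner of Psmg4, was not analysed here. Each of these 6 genes was measured by 1 probe.

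Psmf1, which encodes the proteasome-binding protein PI31, was at 1.23 and 1.22, a 2.34-fold difference (adjusted p 0.00183). Of the activators outside the immunoproteasome, Psme3, the nuclear PA28 gamma, was at 0.28 and 0.25 (adjusted p 0.0189), and after centring it was at 0.33 and no longer passed (adjusted p 0.118). Psme4, the activator PA200, was at -0.11 on both arrays and did not pass (adjusted p 0.0843). Psmb11, the catalytic subunit of the thymus form of the proteasome, was at 1.48 ± 0.14 (adjusted p 0.00405). Psma8, an alpha subunit of the testis form, was at 0.01 and -0.14 and did not pass (adjusted p 0.438). Psmc3ip, a meiotic recombination factor that shares only the prefix, was at 1.30 and 1.35 (adjusted p 0.00184) and is no subunit.

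How far a single probe can be trusted was read from the 7 members with 2 or more probes. Their probes differed by 0.08 to 0.80 within a gene, with a median of 0.35, and for 3768 genes with 2 or more probes the median was 0.75. The 3 probes of Psmd7 had means from -0.37 to 0.43. The probes of Psme4 were at -0.44 and 0.22, those of Psmd1 at 0.31 and 0.87, and those of Psmc4 at -0.05 and 0.31. Psma6 (1.11 and 1.37) and Psmc6 (0.92 and 1.00) kept their sign and size. For Psmd7, Psme4, Psmd2 and Psmc4 the probes lay on either side of 0, so the mean of the gene hides a disagreement that the SD over arrays does not show. With 1 probe per gene, that whose arrays differed least, Psmd7 (0.18), Psme4 (-0.44) and Psmd2 (-0.25) passed the test. The other 39 members had 1 probe each.

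**Figure D4:**
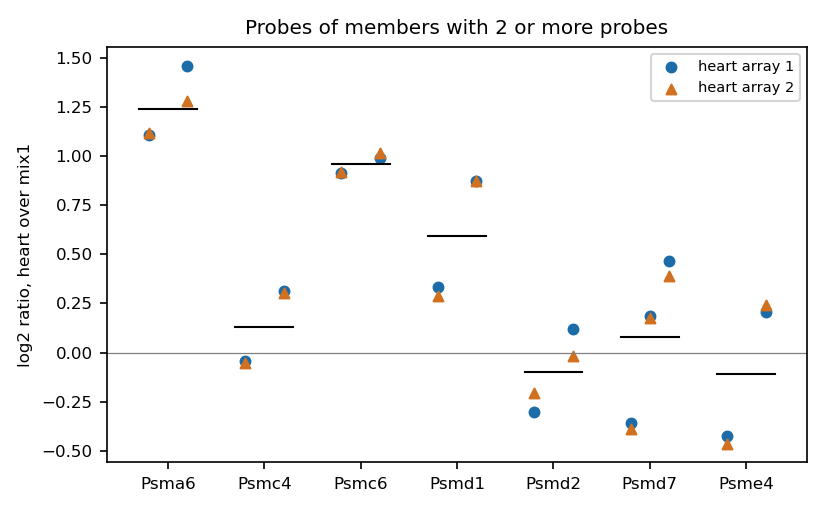
Log2 ratio of heart over mix1 (vertical axis) for every probe of the 7 members with 2 or more probes; circles are heart array 1, triangles heart array 2 and black bars the gene's mean. Probes of 1 gene lie up to 0.80 apart (Psmd7), while the arrays of 1 probe lie at most 0.18 apart (Psma6).

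The immunoproteasome genes stand in groups on the chromosomes, by the gene order of GRCr8. Psmb8 and Psmb9 lie in the class II region of the histocompatibility complex on chromosome 20, in the order Tap2, Psmb8, Tap1, Psmb9. Tap1 and Tap2 encode the peptide transporter that takes proteasome products into the endoplasmic reticulum. While Psmb8 and Psmb9 were higher in heart, Tap1 was at -0.24 and -0.18 (adjusted p 0.035) and Tap2 at -0.43 on both arrays (adjusted p 0.00728), both lower by less than 2-fold. Psmb9 thus exceeded Tap1, its immediate neighbour, by 2.02 ± 0.04. Further out, RT1-DOb was at 2.24 ± 0.45 and RT1-DMa at -1.55 ± 0.02.

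Psme1 and Psme2 lie on chromosome 15 with Emc9 between them. Emc9 was at 2.27 and 2.34 (adjusted p 0.00129), and its annotated span overlaps that of Psme1; the positions of their probes were not used here. On the far side of Psme1, Fitm1, a fat storage gene of muscle, was at 5.53 ± 0.04. Beyond Psme2, Rnf31 was at 0.47 ± 0.01 and Irf9, a factor of the interferon response, at 0.78 ± 0.06. From Fitm1 to Rnf31, each gene in this order had a lower ratio than the one before, although Psme2 and Rnf31 lay close together. Irf9, the next gene, lay above both. At Psmb10 on chromosome 19 the neighbours were Ctrl (-1.41 ± 0.36) and Lcat (0.58 ± 0.004). Psmd13 (-1.28) lies between Sirt3 (2.68) and Cox8b (6.33), both mitochondrial genes, which went the other way. How often members and neighbours shared a direction was not counted over all members.

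**Figure D5:**
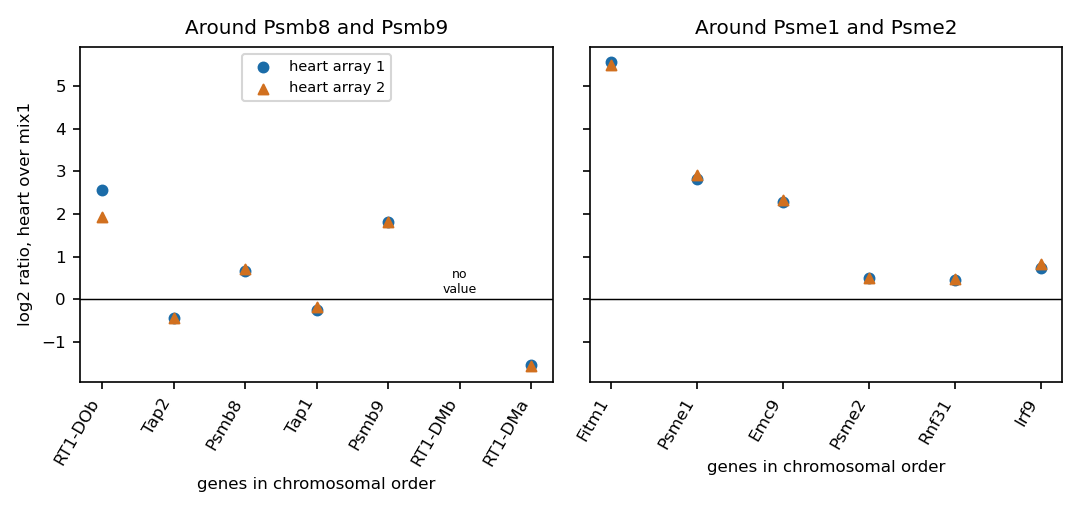
Log2 ratio of heart over mix1 (vertical axis) for genes in chromosomal order (horizontal axis, not to scale) around Psmb8 and Psmb9 on the left and around Psme1 and Psme2 on the right; circles are heart array 1 and triangles heart array 2. Tap1 and Tap2 lie below 0 on both arrays beside Psmb8 and Psmb9, and on the right all 6 genes lie above 0.

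Of 25 measured genes of antigen processing and the interferon gamma pathway, 10 were higher and 12 lower (median -0.19), shares of 40% and 48% beside 31.4% and 41.5% of all genes. The highest were the interferon-induced Mx2 at 4.67 ± 0.10, and Oas1a at 4.43. The class I light chain gene B2m was at 1.77 ± 0.02 and the class I heavy chain gene RT1-A2 at 2.18 ± 0.01. The lowest was Pdia3 at -2.28, which with Calr (-1.77) and Canx (-1.40) folds class I molecules. Among the ligand, receptors and factors of the interferon response, Ifng, which encodes interferon gamma itself, was higher at 0.80 ± 0.01 (adjusted p 0.00295). The factors Irf2 (0.84 ± 0.02) and Irf9 (0.78 ± 0.06) and the interferon-induced Gbp2 (1.43 ± 0.02) were higher too. Irf1 was at 0.12 ± 0.04 and did not pass (adjusted p 0.092). The receptor genes Ifngr1 (-1.18 ± 0.04) and Ifngr2 (-0.50 ± 0.004), the kinases Jak1 (-0.75 ± 0.03) and Jak2 (-2.11 ± 0.005) and the factor Stat2 (-0.19 ± 0.01) were lower. Over both arrays the genes of this list closest to Psmb8, by the mean absolute difference of log2 ratios, were Irf9 (0.09 away), Ifng (0.12), Irf2 (0.15), Irf1 (0.56) and Tapbp (0.67). Only genes of this list were compared, so the order says nothing of genes outside it. Shared regulation was not tested.

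Immune cells carry the immunoproteasome without stimulation, and their markers also differed between the channels. Of 9 leukocyte markers, 5 (55.6%) were higher and 0 lower in heart, beside 31.4% and 41.5% of all genes. Cd3g was at 6.15 ± 0.07, Cd2 at 4.34 ± 0.43 and Cd74 at 4.35. The pan-leukocyte gene Ptprc was at 0.06 ± 0.05 and did not pass (adjusted p 0.288). Of 6 macrophage markers, 1 (16.7%) was higher, Itgam at 0.99, and 4 (66.7%) lower, with Cd14 at -3.81 and Cd68 at -1.22. All 5 endothelial markers were higher (median 3.75), as were 3 of 3 erythroid markers (median 3.84), with Hbb, a globin gene, at 5.11 ± 0.03. Of 5 markers of bone marrow stroma and osteoblasts, 2 were higher and 3 lower, from Spp1 at -8.74 ± 0.12 to Alpl at 2.91 ± 0.03. Most leukocyte markers were alike on both arrays, with Cd3g, Cd74, Cd52 and Lck differing by at most 0.10. Cd3e (2.44 on array 1 and 0.16 on array 2) and Cd2 (4.64 and 4.03) differed more. The immunoproteasome median was 1.50 and 1.56. The part of these cells in the ratios was not tested.

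Among partners and regulators of the proteasome, 9 of 16 measured genes (56.2%) were higher and 5 (31.2%) lower (median 0.21), beside 31.4% and 41.5% of all genes. Adrm1, a ubiquitin receptor of the 19S particle, was highest at 1.29 ± 0.02 (adjusted p 0.0018), and Pomp, the chaperone of the beta ring, was at 0.78 ± 0.01 and Sem1, a small lid subunit, at 0.89 ± 0.04. Zfand2a, a stress-induced proteasome-binding gene, was lowest at -2.36 ± 0.01. Of the deubiquitinases bound to the cap, Uchl5 was at 0.24 ± 0.01 and Usp14 at -0.43 ± 0.02. Ddi2, the protease that activates Nfe2l1, was at -1.08 ± 0.03.

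Of 19 genes of ubiquitin activation, conjugation and delivery, 10 (52.6%) were lower and 7 (36.8%) higher (median -0.23), not far from the 41.5% and 31.4% of all genes. The conjugating enzyme gene Ube2d1 was highest at 1.88 ± 0.04, and Uba6, an activating enzyme, was lowest at -1.59 ± 0.05. The main activating enzyme gene Uba1 was at -0.44, and the shuttle factors Rad23b (-0.52 ± 0.05), Ubqln1 (-0.84 ± 0.01) and Ubqln2 (-0.37 ± 0.04) were lower. The ligase subunits Skp1 (0.93 ± 0.04) and Rbx1 (0.75) were higher. All but 2 of the 17 called genes of this list differed by less than 2-fold.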

How the data were processed

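The deposited table held a log2 ratio of the 2 channels for 40012 probes on each of 2 arrays. Per the submitters' processing notes, the authors used Agilent Feature Extraction; for the version, background correction, dye normalization and log base, the sources used here give nothing. The direction is not stated outright and was inferred from the wording of the series text and from the cardiac markers. Values ran from -11.10 to 10.42, too wide for base 10, and were read as log2. Medians of 0.01 and -0.14 show that the columns were not centred. The platform annotation gave 1 symbol for 20417 probes, several for 0 and none for 19595. Through their accessions, 16978 probes were paired with genes of GRCr8, which updated 2251 symbols. Probes were averaged per gene, giving 15613 genes.

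An intercept per gene was fitted over all genes with limma 3.58.1 in R 4.3.3 (lmFit, eBayes, prior degrees of freedom 1.24), two-sided, with Benjamini-Hochberg adjustment at 0.05. Mix1 counts as 1 control sample, and the ratio against 0 leaves out its spread. The code was tested on simulated data. The number of arrays limits the precision. Every member is accounted for. Named with values were the immunoproteasome genes, their counterparts, the extremes of each role group, all members of groups of 6 or fewer and those that missed the test; of context lists, the extremes and neighbours. Others were named after their values were seen. Members and lists were chosen with earlier results of these data known. Alternatives were centring, natural logs, other probe rules, robust moderation and leaving out an array.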

Additional observations from a re-analysis of the deposited data

How the results depend on the processing

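Counts of members past the test changed by at most 1.5 times under every alternative run: 22 to 27 were higher, 8 to 12 lower, 9 to 14 at least 2-fold higher and 3 to 4 at least 2-fold lower. With the arrays centred on their medians, 30 of the 36 calls remained, and Psma3, Psma4, Psma7, Psmb5, Psme3 and Psmg1 no longer passed, although the ratios of Psma4, Psma7, Psmb5 and Psme3 were larger there; that fit had infinite prior degrees of freedom and so ignored each gene's own spread. With 1 probe per gene, that whose arrays differed least, Psmd2 (-0.25), Psmd7 (0.18) and Psme4 (-0.44) passed. No called member changed sign. Of those that had not passed, Psmc4 went to -0.048 with that probe, and after centring Psmb2 went to 0.039, Psmb3 to 0.023 and Psma8 to 0.00066; Psma8 was also at 0.014 on array 1 alone. None of these passed where a test could be run. The core median moved to 0.35 after centring, 0.42 as natural logs and 0.33 with probes matched by accession; the 19S median to 0.14, 0.11 and, with the median of probes, 0.13; the immunoproteasome median to 1.59 after centring and 2.20 as natural logs. As natural logs, Psmb8 minus Psmb5 was 0.52, Psmb9 minus Psmb6 1.75 and Psmb10 minus Psmb7 1.50, by construction. Leaving out an array left 1, with no test; the core median was then 0.28 to 0.31, the 19S median 0.06 to 0.10, the immunoproteasome median 1.50 to 1.56, and the differences 0.32 to 0.40, 1.20 to 1.22 and 1.04 to 1.05. By current symbols the rule would find 47 members, the added one being Psme3ip1 (0.32), no subunit. No filter on dim spots could be run without intensities. No paired analysis was possible because there was 1 group of samples against 1 pool.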
